A study of Homo sapiens with 12 samples.

Results

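Untreated RKO cells were set against untreated HCT116 cells across every gene with a named probe set on the Affymetrix Human Gene 2.0 ST array. The contrast used 4 of the 12 arrays of the series, 2 of RKO and 2 of HCT116, and no array of treated cells entered the difference. Its standard errors and p-values came from a fit of all 12 arrays. RKO and HCT116 are established human colorectal cancer cell lines. The other 8 arrays held Nutlin-3a-treated RKO and HCT116 cells (10 µM for 8 h) and another colorectal line, SW48, with and without the drug, 2 arrays in each group. Nutlin-3a is a small molecule that frees p53 from its inhibitor MDM2. The labels do not say whether the duplicates were separate cultures, so p-values measure only the spread between duplicates over the 12 arrays, which may be technical. A culture or array batch that followed the line cannot be told apart from it. The growth text in the labels names HCT116 alone and the extraction text names thyroids, which is why thyroid markers were looked at below.

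Levels are the deposited log2 intensities. A difference of 1 on this scale is 2-fold. The 37270 probe sets gave 14118 genes with a symbol, among them 11729 protein-coding, 1359 long noncoding and 611 microRNA genes. Over the probe sets, r was 0.9643 to 0.9651 between untreated RKO and untreated HCT116 arrays and 0.9964 to 0.9974 between duplicates. The number of arrays limits the precision. A level on an array does not tell fewer expressing cells from less RNA per cell. Each probe set has its own response, so levels of different genes do not rank their abundance.

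Both lines are mismatch-repair deficient, near-diploid lines of the hypermutated kind of colorectal cancer, but they differ in drivers, since HCT116 carries mutated RAS and stabilised beta-catenin and RKO a mutated RAF kinase. Colon epithelial cells are held in sheets by tight junctions, adherens junctions and desmosomes. Their genes are kept on by transcription factors such as GRHL2 and EHF and by the splicing regulators ESRP1 and ESRP2, and the miR-200 family protects that state by repressing ZEB1. RKO is known as a line with high promoter methylation and poorly differentiated morphology.

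The lines differed at many genes. A gene was called where limma's adjusted p was under 0.05, and 5852 of the 14118 genes were (41.5%), 3169 higher in RKO (22.4%) and 2683 lower in RKO (19%). Most of these differences were small. A difference of at least 2-fold as well was seen at 1084 genes (7.68%), 509 higher in RKO (3.61%) and 575 lower in RKO (4.07%). At 4-fold the counts were 125 higher and 220 lower, at 16-fold 26 and 52, and at 64-fold 4 and 10, so genes lower in RKO outnumbered those higher at each of these limits. The gene just inside the 2-fold limit was NME5 (log2 difference -1.001) and the gene just outside was TMOD2 (0.9998). The median difference over all genes was 0.0136. Counts of lists and families below stand beside the shares over all genes, 22.4% higher and 19% lower, or 3.61% and 4.07% at 2-fold. A count near these shares does not set a list apart, and no list was tested against them. Of the 575 genes lower in RKO, 229 had an RKO mean under 5, and of the 509 higher, 108 had an HCT116 mean under 5; the arrays' medians were 4.97 to 5.05. No background measure was used, so a fold at such genes is the ratio of the deposited values, and the size and rank of the largest folds are not exact.

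**Figure D1:**
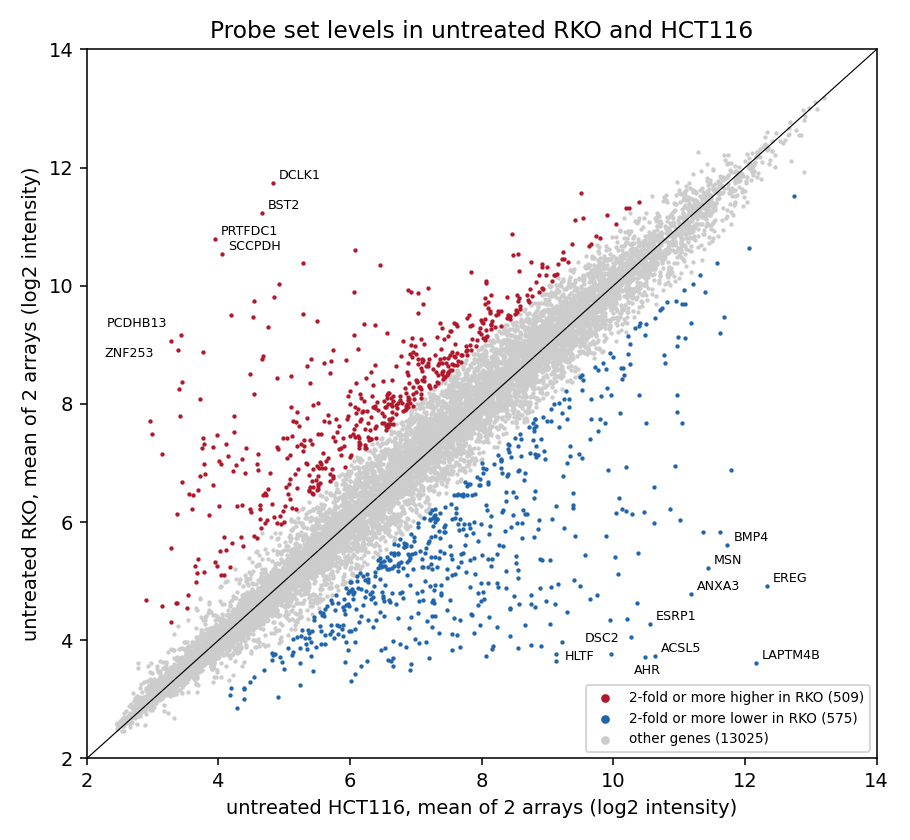
Mean level of 14109 genes in untreated RKO (vertical axis, log2 intensity, 2 arrays) against untreated HCT116 (horizontal axis, log2 intensity, 2 arrays); the line marks equal levels, red points are the 509 genes called and at least 2-fold higher in RKO, blue points the 575 lower in RKO. LAPTM4B and EREG lie lowest against a high HCT116 level, and DCLK1 and BST2 highest against a low HCT116 level.

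The largest difference in the deposited values was a fall. LAPTM4B, a lysosomal membrane protein gene often amplified in carcinomas, had levels of 3.65 and 3.59 in the RKO arrays, against 12.16 and 12.18 in the HCT116 arrays. That is a 375-fold lower level (log2 difference -8.55 ± 0.094 SE, n = 2 arrays each, adjusted p = 9.84e-12), and the SW48 mean of 3.91 lay with RKO. EREG, the gene of the EGFR ligand epiregulin, had 4.76 and 5.07 in RKO, against 12.39 and 12.29 in HCT116 (172-fold, adjusted p = 1.75e-11). ACSL5, a long-chain acyl-CoA synthetase of the intestinal epithelium, was 119-fold lower in RKO, and AHR, the aryl hydrocarbon receptor, 109-fold lower. For all 4 genes no RKO array lay above 5.07 and no HCT116 array below 10.46. ANXA3, a calcium-dependent phospholipid-binding annexin, followed at -6.40 ± 0.065. MSN, the gene of moesin that ties the plasma membrane to actin, stood at -6.22 ± 0.11, after ESRP1, which is given below.

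On the other side stood DCLK1, a microtubule-associated kinase known as a marker of tuft cells. Its levels were 11.74 and 11.74 in the RKO arrays, against 4.81 and 4.83 in the HCT116 arrays (log2 difference 6.92 ± 0.13, 121-fold, adjusted p = 9.58e-11). PRTFDC1, a relative of the purine salvage enzyme HPRT1, had 10.85 and 10.72 in RKO, against 4.33 and 3.56 in HCT116 (114-fold). The groups were far apart for both, although the 2 HCT116 arrays of PRTFDC1 differed by more than those of most genes. SCCPDH, a putative oxidoreductase, was 89.4-fold higher in RKO, and QNG1, the enzyme that salvages queuosine, 46-fold higher. GRPR, the receptor of gastrin-releasing peptide, was 34.4-fold higher by the probe set used (log2 difference 2.49 by the other), PDE7B, a cAMP phosphodiesterase, 37-fold, PLBD1, a phospholipase B-like protein, 39.8-fold and AGMAT, agmatinase, 34.2-fold. SW48 had RKO-like means for PRTFDC1 (10.46), SCCPDH (11.32) and QNG1 (8.90), but HCT116-like means for DCLK1 (5.40), GRPR (4.91) and PDE7B (4.18).

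Genes of epithelial identity were lower in RKO as a group. Of 28 measured members of a list of epithelial splicing factors, transcription factors and surface proteases (41 listed), 21 were lower, 4 higher and 3 did not pass; 15 were at least 2-fold lower (53.6%) and 0 at least 2-fold higher. The list's median difference was -1.18, beside 0.0136 over all genes. The 4 higher members were ESRP2 (log2 difference 0.531), GRHL1 (0.485), GRHL3 (0.557) and OVOL2 (0.496), named after their values were seen. ESRP1, the regulator of epithelial exon choice, had 4.28 and 4.27 in the RKO arrays, against 10.56 and 10.54 in the HCT116 arrays (-6.27 ± 0.074, adjusted p = 1.42e-11). ST14, the membrane protease matriptase, had 5.65 and 5.30 in RKO, against 10.41 and 10.34 in HCT116 (-4.90 ± 0.098). GRHL2, a grainyhead factor that keeps junction genes on, had 4.97 and 4.26 in RKO, against 8.58 and 8.56 in HCT116 (-3.96 ± 0.19, adjusted p = 1.00e-07). EHF, an ETS factor of epithelia, was 16-fold lower, MYO5C, an unconventional myosin of epithelial secretory transport, 19-fold, and PROM1, the gene of the apical membrane protein CD133, 10.1-fold.

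Junction genes divided. Of 32 measured members (44 listed), 16 were lower, 2 higher and 14 did not pass, 9 of them at least 2-fold lower (28.1%) and 0 at least 2-fold higher, with a median of -0.32. DSC2, a desmosomal cadherin, had 4.15 and 3.97 in RKO, against 10.22 and 10.32 in HCT116 (73.9-fold lower, adjusted p = 1.42e-11). CLDN7 and CLDN4, tight junction claudins, were 45.9-fold and 17.6-fold lower. EPCAM, the epithelial adhesion molecule, had 6.43 and 5.64 in RKO, against 11.05 and 10.99 in HCT116 (-4.99 ± 0.19, adjusted p = 1.87e-08). Its RKO arrays differed by more than its HCT116 arrays, but the groups did not overlap. JUP, plakoglobin, was 16.2-fold lower and PPL, the cornified envelope and desmosome protein periplakin, 3.94-fold. In all of these but CLDN4, whose SW48 mean of 6.05 was nearer RKO, the SW48 mean was nearer HCT116. Keratins followed: of 14 measured, 7 were lower, 2 higher and 5 did not pass, with KRT19 15-fold lower, KRT23 7.87-fold lower and KRT18 1.87-fold lower, while KRT80 was 2.89-fold higher. CDH1, the gene of E-cadherin, was not analysed here.

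**Figure D2:**
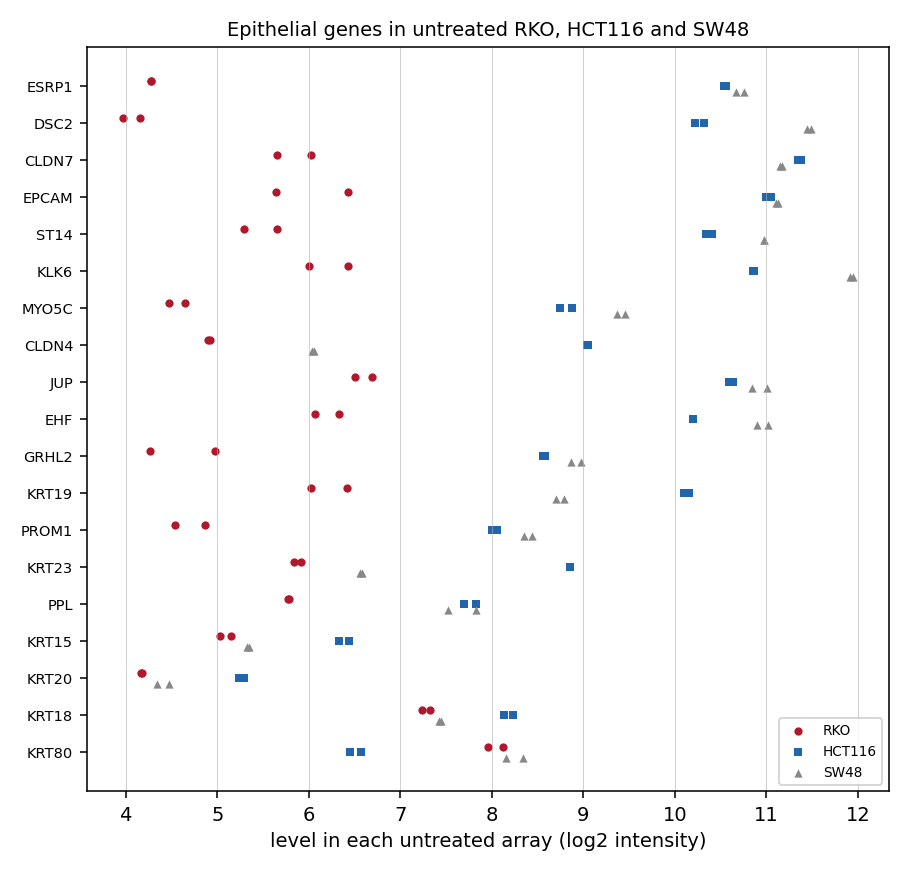
Level of 19 epithelial genes in each untreated array (horizontal axis, log2 intensity), for RKO (circles), HCT116 (squares) and SW48 (triangles), 2 arrays each; genes are ordered by the difference of RKO and HCT116, the largest fall at the top. Every RKO point lies left of every HCT116 point except for KRT80, the only gene of the 19 that was higher in RKO. The 19 were mostly picked as called list members with the largest differences, so this separation follows from the choice. Members of these lists that were called higher by less than KRT80 are not shown.

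The repressors ZEB and SNAI bind the E-box letters CAGGTG, read as CACCTG on the other strand, which many epithelial promoters carry near the start site. RefSeq promoters (GRCh38.p14, 250 bases before to 50 after the start) were found for 18 of the epithelial list members that were at least 2-fold lower in RKO, and 10 of these held the letters on either strand (55.6%). The letters were as common, at 17 of 30 (56.7%), in the other measured members of the epithelial lists, and were found in 19.7% of the promoters of tested genes and 20.6% of all promoters in the table. The share was thus about the same in the members that were lower in RKO and in the rest of these lists. Over all genes, 28.5% of 449 promoters of genes at least 2-fold lower in RKO held the letters and 16.7% of 401 promoters of genes at least 2-fold higher. The 250 bases before the start are shown for DSC2, KLK6 and MYO5C, with the E-box in capitals. These are examples of list members with a large fall and such letters there. They were not picked from all list members, so they are not a ranking. A match is a description of these letters and not a binding site.
DSC2 (chr18:31102422-31102671, minus strand): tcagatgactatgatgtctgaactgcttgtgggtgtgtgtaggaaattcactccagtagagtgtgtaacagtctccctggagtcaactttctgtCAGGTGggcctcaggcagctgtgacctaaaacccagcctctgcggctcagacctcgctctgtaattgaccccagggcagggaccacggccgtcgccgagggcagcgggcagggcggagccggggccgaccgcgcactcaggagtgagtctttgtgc
KLK6 (chr19:50969592-50969841, minus strand): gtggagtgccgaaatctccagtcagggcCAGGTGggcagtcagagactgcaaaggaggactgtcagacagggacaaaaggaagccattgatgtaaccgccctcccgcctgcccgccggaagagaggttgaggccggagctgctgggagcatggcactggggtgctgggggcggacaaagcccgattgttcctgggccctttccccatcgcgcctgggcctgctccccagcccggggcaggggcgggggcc
MYO5C (chr15:52295805-52296054, minus strand): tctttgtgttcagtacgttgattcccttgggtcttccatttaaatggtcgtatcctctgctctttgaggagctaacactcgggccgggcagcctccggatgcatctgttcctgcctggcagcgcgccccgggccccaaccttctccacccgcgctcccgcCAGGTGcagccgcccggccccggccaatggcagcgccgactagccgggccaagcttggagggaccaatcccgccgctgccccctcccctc

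Intestinal identity genes differed little, but many were dim in both lines. Their median level was 5.29 in RKO and 5.27 in HCT116, beside array medians of 4.97 to 5.05. Small differences at dim genes do not show that identity was alike. Of 31 measured members (48 listed), 6 were higher, 4 lower and 21 did not pass, and KRT20 alone was 2-fold lower (-1.10 ± 0.064). CDX2, the homeobox factor that specifies intestine, had 7.51 and 7.54 in RKO, against 7.42 and 7.34 in HCT116 (0.14 ± 0.065, adjusted p = 0.109), and CDX1, its relative, 5.62 and 5.85 in RKO, against 5.87 and 5.88 in HCT116 (adjusted p = 0.327). Neither passed. GATA4, a factor of the proximal gut, was 1.98-fold higher in RKO (adjusted p = 2.07e-04), and KLF5, a crypt zinc finger factor, was 1.51-fold lower.

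Mesenchymal genes, which are often the counterpart of lost epithelial genes, did not rise together. Of 33 measured members (51 listed), 14 were lower in RKO, 4 higher and 15 did not pass, and at 2-fold 10 were lower (30.3%) and 4 higher (12.1%). VIM, the intermediate filament vimentin, had 6.01 and 5.95 in RKO, against 6.20 and 6.10 in HCT116 (adjusted p = 0.140), and ZEB1, the repressor of epithelial genes, 5.94 and 6.07 in RKO, against 5.90 and 5.85 in HCT116 (0.13 ± 0.071, adjusted p = 0.176). With quantile normalization ZEB1 passed (adjusted p = 0.0417). The 4 members at least 2-fold higher were CCN2, a matrix-associated YAP target (14.9-fold by the probe set used, with a log2 difference of 2.42 by the other), TAGLN, an actin-binding protein of smooth muscle (6.86-fold), SNAI2 (7.92 and 7.97 in RKO, against 6.25 and 6.46 in HCT116) and the receptor kinase AXL (11.24 and 11.16 in RKO, against 9.95 and 9.85 in HCT116); SNAI2 and AXL were named after their values were seen. Among those lower were MSN, ANTXR1, an anthrax toxin receptor that binds collagen (44.6-fold), DPYSL3, a cytoskeletal protein of motile cells (14.7-fold), and AKAP12, a kinase scaffold (12.8-fold).

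**Figure D3:**
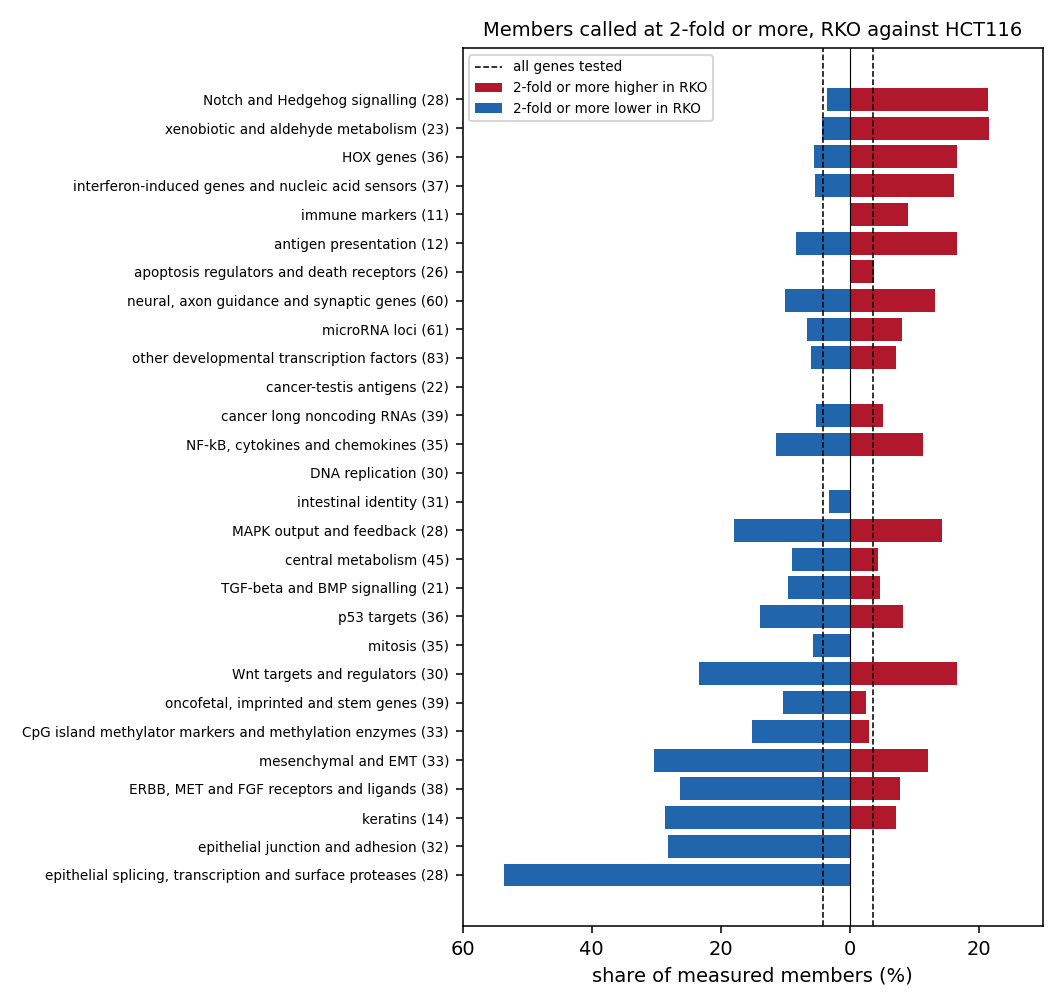
Share of measured members called and at least 2-fold higher (red, to the right) or lower (blue, to the left) in untreated RKO than in untreated HCT116, in percent, for gene lists with 10 or more measured members (number in brackets); dashed lines mark the shares over all genes tested, 3.61% higher and 4.07% lower. The list of epithelial splicing factors, transcription factors and proteases reaches furthest to the left, with 53.6% of members lower and none higher, and the Notch, xenobiotic and HOX lists lie mostly to the right.

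Wnt genes went both ways. Of 30 measured members (45 listed), 10 were higher, 9 lower and 11 did not pass. At 2-fold 5 were higher (3 with quantile normalization) and 7 lower, beside 3.61% and 4.07% over all genes. DKK1, a secreted Wnt antagonist, had 4.42 and 4.30 in RKO, against 10.22 and 10.21 in HCT116 (57.9-fold lower, adjusted p = 3.24e-11), and RNF43, the ubiquitin ligase that removes Wnt receptors, was 17.5-fold lower. CD44, a hyaluronan receptor and Wnt target of crypts, was 55.3-fold lower and SOX9, a crypt progenitor factor, 14.8-fold lower. BMP4, a bone morphogenetic protein, had 5.58 and 5.66 in RKO, against 11.74 and 11.73 in HCT116 (69.3-fold lower). CCND2, cyclin D2, was 23.3-fold higher by the probe set used; its second probe set gave a log2 difference of 0.89. AXIN2, the feedback inhibitor used as a readout of beta-catenin, was 2.03-fold higher in RKO (1.02 ± 0.067, adjusted p = 9.97e-07), with levels of 9.48 and 9.56, against 8.43 and 8.57 in HCT116 and a SW48 mean of 11.75. LGR5, the crypt stem cell receptor, did not pass (adjusted p = 0.370), and LGR4, its broader relative, was 3.06-fold higher. The SW48 means of SOX9 (10.48), BMP4 (12.91) and RNF43 (10.69) were like HCT116 or above it, and that of DKK1 (3.76) like RKO.

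Ligands and receptors of growth factor kinases were more often lower. Of 38 measured members of the ERBB, MET and FGF list (42 listed), 20 were lower, 11 higher and 7 did not pass, and 10 were at least 2-fold lower (26.3%) against 3 at least 2-fold higher (1 with quantile normalization). Besides EREG, FGF2, a heparin-binding fibroblast growth factor, was 25.7-fold lower, with 3.89 and 3.86 in RKO, against 8.48 and 8.64 in HCT116. FGF19, an ileal hormone of bile acid feedback, was 6.88-fold lower, and ERRFI1, a feedback inhibitor of EGFR, 3.62-fold lower. EGFR itself was 1.60-fold lower (-0.68 ± 0.075, adjusted p = 4.60e-05), and NRG4, a ligand of ERBB4, 3.11-fold higher. KITLG, the ligand of the KIT receptor, was 30.2-fold lower (6.98 and 6.78 in RKO, against 11.76 and 11.83 in HCT116).

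Genes that report signalling through ERK, the kinase downstream of both RAS and RAF, did not share a direction. Of 28 measured members (43 listed), 10 were higher, 12 lower and 6 did not pass, beside 22.4% and 19% over all genes. At 2-fold 4 were higher (14.3%) and 5 lower (17.9%), beside 3.61% and 4.07% over all genes. The dual-specificity phosphatases that switch ERK off were lower in RKO: DUSP4 by 6.64-fold, DUSP5 by 2.80-fold and DUSP6 by 2.30-fold (7.62 and 7.63 in RKO, against 8.84 and 8.82 in HCT116, adjusted p = 1.68e-07). The second probe set of DUSP5 gave -0.48. SPRY2, another feedback inhibitor of RAS signalling, was 5.65-fold higher in RKO (9.57 and 9.50, against 6.98 and 7.10 in HCT116), and EGR1, an immediate early transcription factor, 2.34-fold higher by the probe set used (log2 difference 0.24 by the other). ETV5, an ETS factor induced by ERK, did not pass (8.75 and 8.72 in RKO, against 8.84 and 8.76 in HCT116, adjusted p = 0.448).

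Several genes known for promoter methylation in colorectal cancer were low in RKO. Of 33 measured members of the methylator list (43 listed), 9 were lower, 5 higher and 19 did not pass. At 2-fold 5 were lower (15.2%) and 1 higher, beside 4.07% and 3.61% over all genes. HLTF, a helicase-like ubiquitin ligase of DNA damage tolerance, had 3.78 and 3.74 in RKO, against 9.93 and 10.00 in HCT116 (73.7-fold lower), and the SW48 mean of 3.58 was as low. The second probe set of HLTF differed by only -0.29. RASSF2, a RAS-binding tumour suppressor, was 9.99-fold lower, TET1, which oxidises methylated cytosine, 6.02-fold by the probe set used (-0.34 by the other), CDKN2A, an inhibitor of CDK4 and CDK6, 2.70-fold, and RUNX3 2.08-fold (adjusted p = 1.90e-03). HIC1, a transcriptional repressor hypermethylated in cancer, was 2.41-fold higher. EPM2AIP1, a laforin-interacting protein gene, had 4.43 and 4.37 in RKO, against 8.08 and 8.13 in HCT116 (13.1-fold lower, adjusted p = 3.95e-10), with a SW48 mean of 4.45. Among mismatch repair genes, PMS2, the endonuclease subunit of MutL alpha, was 1.75-fold lower. DNA methylation was not measured on these arrays.

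CpG density is shown beside these values, since it differs between promoters that methylation can silence and those that it seldom does. Of the 10568 tested genes with a RefSeq promoter, 58.7% had at least 20 CG letters in their 300 bases, and the median was 23. Promoters of genes at least 2-fold lower in RKO had a median of 24 and those at least 2-fold higher a median of 25. The 22 promoters of genes at least 16-fold higher in RKO had a median of 12, and 31.8% held 20 or more. The 43 promoters of genes at least 16-fold lower in RKO had a median of 23, and 60.5% held 20 or more. Shown are the 250 bases before the start of HLTF, which holds 20 CG, and of BST2 and PCDHB13, both far higher in RKO, which hold 2 and 8, with CG in capitals. HLTF and BST2 were picked by hand, and PCDHB13 as the beta protocadherin with the largest rise. These examples do not stand for the genes lower or higher in RKO, and a link of CG count to direction was not tested.
HLTF (chr3:149086534-149086783, minus strand): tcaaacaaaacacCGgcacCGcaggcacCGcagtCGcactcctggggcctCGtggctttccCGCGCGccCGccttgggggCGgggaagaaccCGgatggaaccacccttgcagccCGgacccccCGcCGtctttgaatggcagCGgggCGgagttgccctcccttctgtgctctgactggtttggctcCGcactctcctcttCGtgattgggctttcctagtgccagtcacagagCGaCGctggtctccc
BST2 (chr19:17405631-17405880, minus strand): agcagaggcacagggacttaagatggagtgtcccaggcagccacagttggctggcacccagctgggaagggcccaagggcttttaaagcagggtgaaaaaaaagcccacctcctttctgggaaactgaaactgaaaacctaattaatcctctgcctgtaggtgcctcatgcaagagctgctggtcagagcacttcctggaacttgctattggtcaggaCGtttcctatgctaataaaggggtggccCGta
PCDHB13 (chr5:141213669-141213918, plus strand): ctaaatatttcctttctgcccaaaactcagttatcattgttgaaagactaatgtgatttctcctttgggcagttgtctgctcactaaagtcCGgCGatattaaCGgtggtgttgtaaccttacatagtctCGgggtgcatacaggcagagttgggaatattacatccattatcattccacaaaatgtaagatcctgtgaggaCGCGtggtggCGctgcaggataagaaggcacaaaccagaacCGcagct

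Zinc finger genes and protocadherins stood out after the values had been seen, so their counts are a description with no test of the family. Zinc finger genes named ZNF or ZFP encode mostly KRAB repressors of transposable elements and lie in tandem clusters, many on chromosome 19. Of 484 measured, 73 were at least 2-fold higher in RKO (15.1%) and 15 at least 2-fold lower (3.1%), beside 3.61% and 4.07% over all genes. On chromosome 19 (RefSeq), 49 of 230 were at least 2-fold higher (21.3%) and 4 lower (1.74%), and on other chromosomes 24 of 254 were higher (9.45%) and 11 lower (4.33%). ZNF253 had 9.17 and 8.95 in RKO, against 3.14 and 3.41 in HCT116 (55.2-fold). ZNF681 was 27.1-fold higher, ZNF841 23.4-fold, ZNF429 22.5-fold, ZNF10 20.8-fold and ZNF284 20.7-fold. The largest zinc finger fall was that of ZNF280B, which had 4.82 and 4.59 in RKO, against 9.63 and 9.65 in HCT116. Genes of these clusters are near-copies of each other, and a probe set may read a paralog as well, so single members are uncertain.

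The beta protocadherins are cell surface cadherins that neurons express in random combinations, encoded side by side on chromosome 5. Of 16 measured, 13 were higher in RKO, 0 lower and 3 did not pass, and 9 were at least 2-fold higher (56.2%), with a median difference of 2.04. PCDHB13 had 9.39 and 8.96 in RKO, against 3.51 and 3.33 in HCT116 (53.8-fold, adjusted p = 3.35e-09). PCDHB8 was 30.5-fold higher, PCDHB14 18.9-fold (9.55 and 9.50 in RKO, against 5.03 and 5.54 in HCT116) and PCDHB2 16.3-fold. The HCT116 means of the 16 genes lay between 2.81 and 5.29 and the RKO means between 2.91 and 9.53. PCDHB1, PCDHB5 and PCDHB6 did not pass. SW48 was like RKO for PCDHB13 (7.85) and PCDHB14 (8.67) and like HCT116 for PCDHB8 (3.73) and PCDHB2 (4.98). None of the 14 beta protocadherin promoters in the RefSeq table held 20 or more CG. The same caution on near-copies holds for them.

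**Figure D4:**
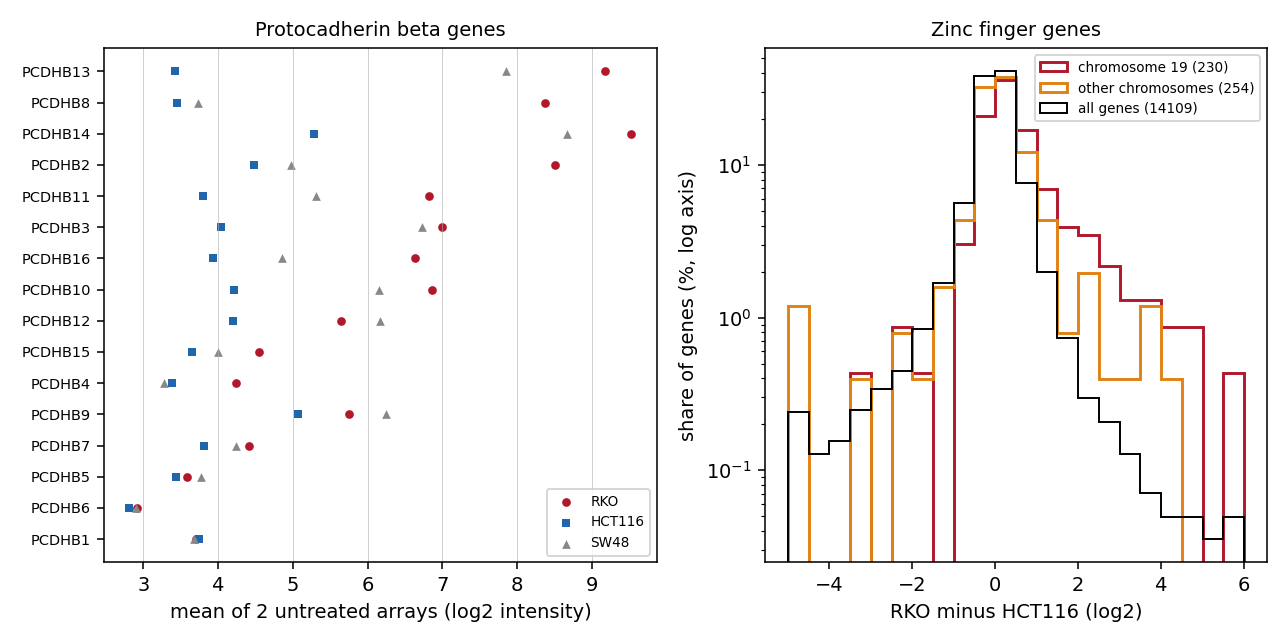
Left, mean level of 16 beta protocadherin genes (horizontal axis, log2 intensity, 2 untreated arrays) in RKO (circles), HCT116 (squares) and SW48 (triangles), ordered by the difference of RKO and HCT116. Right, distribution of the difference RKO minus HCT116 (log2, bins of 0.5) for zinc finger genes on chromosome 19 (red), on other chromosomes (orange) and for 14109 genes (black), in percent on a log axis, with differences beyond the ends put in the end bins; the chromosome 19 genes have the heavier tail on the right, where 21.3% were called at 2-fold or more.

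Other gene families were also picked after their values were seen, and their counts stand beside 22.4% higher and 19% lower over all genes. Of 15 kallikrein-related peptidase genes, which lie side by side on chromosome 19, 6 were lower, 0 higher and 9 did not pass, with a median of -0.181. KLK6 had 6.01 and 6.43 in RKO, against 10.86 and 10.87 in HCT116, and KLK7 5.00 and 5.81 in RKO, against 10.05 and 9.98 in HCT116. Of 21 S100 calcium-binding protein genes, 9 were lower, 0 higher and 12 did not pass, with S100A10, the partner of annexin A2, at 3.85 and 4.35 in RKO, against 7.71 and 7.40 in HCT116. Of 11 annexins, 6 were lower, 2 higher and 3 did not pass. Of 9 metallothioneins, 4 were higher, 2 lower and 3 did not pass. MT1L, a pseudogene and the member with the largest difference, had 8.34 and 8.16 in RKO, against 3.48 and 3.32 in HCT116. The caution on near-copies holds for this family as well.

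Developmental regulators were next. Of 36 measured HOX genes and antisense transcripts (67 listed), 13 were higher, 8 lower and 15 did not pass, and 6 were at least 2-fold higher (16.7%) against 2 lower. HOXB2 had 8.37 and 8.33 in RKO, against 5.40 and 5.37 in HCT116 (7.83-fold), and HOXD9 was 5.26-fold, HOXD3 2.29-fold and HOXC8 2.18-fold higher. HOXB8 was 2.33-fold lower and HOXA10-AS 2.16-fold lower. Of 83 other developmental transcription factors, 15 were higher, 24 lower and 44 did not pass, beside 22.4% higher and 19% lower over all genes. TBX18, a T-box factor of mesoderm, was 22.7-fold lower (4.58 and 4.63 in RKO, against 9.09 and 9.13 in HCT116), and NKX2-5, a cardiac homeobox factor, 3.47-fold higher, with 7.95 and 7.87 in RKO, against 6.18 and 6.05 in HCT116.

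Notch pathway genes were mostly higher where they passed. Notch is a receptor cut open by ligand on a neighbouring cell, and in the crypt it keeps progenitors from secretory fates. Of 28 measured Notch and Hedgehog members (31 listed), 11 were higher, 4 lower and 13 did not pass. At 2-fold 6 were higher (21.4%) and 1 lower, beside 3.61% and 4.07% over all genes. The ligand JAG1 had 11.06 and 11.16 in RKO, against 9.40 and 9.44 in HCT116 (3.23-fold), and the ligand DLL1 was 3.87-fold higher. The receptor NOTCH1 was 2.48-fold higher, and the targets NRARP and HES7 were 3.17-fold and 3.92-fold higher. The receptor NOTCH3, named after its value was seen, was lower, with 5.86 and 6.26 in RKO, against 7.04 and 7.49 in HCT116. PTCH1, the Hedgehog receptor and a target of its own pathway, was 2.89-fold higher. In the TGF-beta and BMP list, 8 of 21 measured members were lower and 3 higher, beside 19% and 22.4% over all genes. At 2-fold 2 were lower (9.52%) and 1 higher (4.76%).

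Genes of antiviral defence differed in both directions. CGAS, the sensor of cytosolic DNA, had 8.85 and 8.91 in RKO, against 3.88 and 3.66 in HCT116 (34.6-fold higher, adjusted p = 2.57e-10), while STING1, the adaptor that CGAS signals through, had 5.59 and 5.37 in RKO, against 6.97 and 6.99 in HCT116 (2.84-fold lower, adjusted p = 2.92e-07). This sensor and its adaptor differed in opposite directions. BST2, tetherin, which holds enveloped virions at the cell surface, had 11.25 and 11.20 in RKO, against 4.54 and 4.78 in HCT116 (94.8-fold). Of 37 measured interferon-induced genes and sensors (54 listed), 12 were higher, 9 lower and 16 did not pass. The shares over all genes were 22.4% higher and 19% lower. At 2-fold 6 were higher (16.2%) and 2 lower (5.41%), beside 3.61% and 4.07% over all genes. With a filter on dim genes 1 was 2-fold lower. IFITM1, a membrane restriction factor, was 4.55-fold and GBP3, a guanylate-binding protein, 5.09-fold higher. HERC5, the ligase that attaches ISG15, was 8.57-fold lower.

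Antigen presentation genes were higher where they passed, apart from a ligand of natural killer cells. Of 12 measured members (38 listed), 6 were higher, 1 lower and 5 did not pass, with a median of 0.48, beside 22.4% higher and 19% lower over all genes. At 2-fold 2 were higher (16.7%) and 1 lower (8.33%). ERAP2, a peptide-trimming aminopeptidase, was 5.43-fold higher, with 7.53 and 7.33 in RKO, against 5.39 and 4.59 in HCT116, and ERAP1 was 1.94-fold higher. CD274, the checkpoint ligand PD-L1, was 2.23-fold and B2M, the light chain of MHC class I, 1.68-fold higher. ULBP1, a ligand of the killer cell receptor NKG2D, was 2.13-fold lower. Of 35 measured members of the NF-kB and cytokine list, 11 were higher and 5 lower, beside 22.4% and 19% over all genes. At 2-fold 4 were higher and 4 lower (11.4% each), beside 3.61% and 4.07%. ICAM1, an adhesion receptor for leukocytes, was 7.23-fold and IL32, a cytokine, 6.98-fold higher, and IL18, an epithelial cytokine, was 20.4-fold lower. OSMR and LIFR, receptors of oncostatin M and leukaemia inhibitory factor, were 38.3-fold and 7.08-fold lower.

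Enzymes of xenobiotic metabolism were more often higher. Of 23 measured members (82 listed), 15 were higher, 3 lower and 5 did not pass, with a median of 0.48. At least 2-fold higher were 5 (21.7%), beside 3.61% over all genes. The glutathione transferases GSTA4 and GSTM3 were 17.2-fold and 11.3-fold higher; GSTA4 had 8.73 and 8.79 in RKO, against 4.57 and 4.74 in HCT116. CBR1, a carbonyl reductase, had 8.59 and 8.68 in RKO, against 5.39 and 5.31 in HCT116 (9.76-fold). NNMT, which methylates nicotinamide, was 11.3-fold higher by the probe set used (log2 difference 1.1 by the other) and ALDH2, mitochondrial aldehyde dehydrogenase, 3.03-fold higher. AHR, the receptor that switches on many such enzymes, was on the other side, with 3.91 and 3.53 in RKO, against 10.46 and 10.51 in HCT116.

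In central metabolism 12 of 45 measured members were higher and 16 lower, beside 22.4% and 19% over all genes. ACSL5 and ACSL1, synthetases that activate fatty acids, differed in direction: ACSL5 had 3.72 and 3.76 in RKO, against 10.63 and 10.64 in HCT116, and ACSL1 had 9.60 and 9.64 in RKO, against 8.08 and 8.12 in HCT116. GAMT, the last enzyme of creatine synthesis, was 12.5-fold lower. BNIP3, a hypoxia-induced mitophagy receptor, was 28-fold lower, with 4.64 and 4.32 in RKO, against 9.30 and 9.27 in HCT116, and PPARG, the lipid-sensing nuclear receptor, 6.10-fold lower. TXNIP, an inhibitor of thioredoxin and glucose uptake, ran the other way, with 9.88 and 9.74 in RKO, against 5.01 and 4.66 in HCT116 (31.4-fold).

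Targets of p53 differed in both directions without drug, and the list as a whole was not tested. Of 36 measured targets (56 listed), 15 were higher, 7 lower and 14 did not pass, beside 22.4% and 19% over all genes. The list's median was 0.0526. At 2-fold 3 were higher (8.33%) and 5 lower (13.9%), beside 3.61% and 4.07%. TP53INP1, a p53-induced nuclear protein, had 7.68 and 7.87 in RKO, against 7.87 and 7.93 in HCT116 (adjusted p = 0.230), and GDF15, a stress cytokine, 11.26 and 11.29 in RKO, against 11.39 and 11.24 in HCT116 (adjusted p = 0.779). The lines overlapped for GDF15, and for TP53INP1 the higher RKO array lay just under the lower HCT116 array. SESN1, an inhibitor of mTORC1, was 1.77-fold higher (0.82 ± 0.070, adjusted p = 6.70e-06), and the noncoding RNA PURPL 2.64-fold higher. PLK2, a stress-induced polo-like kinase, was 13.6-fold lower, DDIT4, another mTORC1 inhibitor, 4.65-fold lower, and SULF2, a heparan sulfatase, 5.58-fold lower by the probe set used (-0.11 by the other). Of 26 measured apoptosis regulators, 8 were higher, 4 lower and 14 did not pass, with 1 at 2-fold, beside 22.4% higher and 19% lower over all genes. BAX and BAK1, pore-forming killers, were 1.74-fold and 1.85-fold higher, APAF1, the core of the apoptosome, 1.52-fold and the survival factor BCL2 2.51-fold higher, and PMAIP1, the BH3-only protein NOXA, 1.93-fold lower.

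Proliferation genes differed by little. Of 30 measured replication genes (48 listed), 8 were higher and 12 lower, none by 2-fold, with a median of -0.00644. Of 35 mitotic genes, 6 were higher and 14 lower, beside 22.4% and 19% over all genes. The 2 at least 2-fold lower were HMMR, a spindle-associated hyaluronan receptor (4.79-fold), and KIF18A, a kinesin that dampens chromosome movement (2.35-fold). CDC25A, the phosphatase that activates CDK2, was 1.81-fold higher, and CDT1, an origin licensing factor, 1.62-fold lower. MYC had 10.53 and 10.42 in RKO, against 10.48 and 10.45 in HCT116 (adjusted p = 0.956).

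Of 60 measured neural genes, 14 were higher, 14 lower and 32 did not pass, which is near the 22.4% and 19% over all genes. At 2-fold 8 were higher (13.3%) and 6 lower (10%), beside 3.61% and 4.07% over all genes. PCDHB2 and PCDHB14, given above, are among the higher members. EFNA5, an ephrin ligand of axon guidance, was 5.69-fold and CADM1, a synaptic adhesion molecule, 4.84-fold higher (log2 difference 1.24 by its second probe set), and EFNB2, an ephrin of arteries and axons, was 5.82-fold and SYT1, the calcium sensor of vesicle release, 5.42-fold lower. Among oncofetal and stem genes, 12 of 39 measured were lower and 7 higher, beside 19% and 22.4% over all genes. The imprinted gene PEG10 was 8.06-fold lower and MSI1, an RNA-binding protein of stem cells, 1.93-fold higher. Among cancer-testis antigens, 19 of 22 measured did not pass and none reached 2-fold. PRAME, a testis antigen of many tumours, was 1.57-fold higher.

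Noncoding transcripts reached 2-fold less often than coding ones, with 36 higher and 27 lower among 1359 long noncoding genes (4.64%) and 7 higher and 4 lower among 611 microRNA genes (1.8%), beside 8.47% of protein-coding genes; that difference was not tested. LYPLAL1-DT, the divergent transcript of LYPLAL1, had 9.55 and 9.38 in RKO, against 4.51 and 4.52 in HCT116 (30.8-fold). BOLA3-DT was 8.04-fold, LINC00667 7.16-fold and LINC00899 5.27-fold higher, and DLGAP1-AS1 was 7.43-fold and PPP3CA-DT 4.94-fold lower. LINC-PINT, a p53-linked noncoding RNA, was 4.11-fold higher by the probe set used (log2 difference 0.20 by the other). UCA1, a cancer-associated noncoding RNA, was 2.29-fold lower by the probe set used (-0.49 by the other). The strand that these probe sets read is not given in the sources used here, so signal from a neighbour on the other strand cannot be told apart.

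Of 61 measured microRNA loci in the list (97 listed), 16 were higher, 7 lower and 38 did not pass, beside 22.4% higher and 19% lower over all genes. At 2-fold 5 were higher (8.2%) and 4 lower (6.56%), beside 3.61% and 4.07% over all genes. With a filter on dim genes 3 were 2-fold higher. The probe set of MIR200C, which guards epithelial identity, had 3.31 and 3.29 in RKO, against 6.004 and 6.034 in HCT116 (-2.72 ± 0.20, adjusted p = 2.61e-06), and SW48 averaged 7.26. Its neighbour MIR141 had 4.30 and 4.45 in RKO, against 4.97 and 5.10 in HCT116 (-0.66 ± 0.17, adjusted p = 0.0104). MIR141, like MIRLET7A2 given next, was named after its value was seen. MIR21, an abundant microRNA of tumours, was 2.63-fold higher, MIR155, of immune cells, 2.33-fold higher and MIRLET7F1 2.71-fold higher, with 4.73 and 4.42 in RKO, against 3.04 and 3.23 in HCT116. MIRLET7A2, of the same family, was lower, with 3.38 and 3.39 in RKO, against 4.64 and 4.43 in HCT116. A probe set of such a locus reads the precursor or a host transcript, and these levels are not those of the mature microRNA. The mature sequences of these loci are shown, from RefSeq on GRCh38.p14, with the seed (bases 2 to 8) in capitals; the let-7 pair shares a seed, and the seeds of miR-200c and miR-141 are close but not the same.
hsa-miR-200c-3p of MIR200C (chr12:6963742-6963764, plus strand): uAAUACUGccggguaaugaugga
hsa-miR-141-3p of MIR141 (chr12:6964155-6964176, plus strand): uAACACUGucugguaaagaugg
hsa-let-7a-5p of MIRLET7A2 (chr11:122146568-122146589, minus strand): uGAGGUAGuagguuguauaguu
hsa-let-7f-5p of MIRLET7F1 (chr9:94176353-94176374, plus strand): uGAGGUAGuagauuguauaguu
hsa-miR-21-5p of MIR21 (chr17:59841273-59841294, plus strand): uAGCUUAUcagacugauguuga
hsa-miR-155-5p of MIR155 (chr21:25573983-25574006, plus strand): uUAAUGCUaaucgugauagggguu

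Markers of other cell types were looked at as a check of the labels. Of 7 measured thyroid markers, 2 were lower in RKO, 0 higher and none by 2-fold, and their means lay between 4.33 and 6.43 in RKO and between 4.51 and 6.40 in HCT116. The means of TG, thyroglobulin, were 5.08 in RKO and 5.17 in HCT116. The 3 fibroblast markers reached at most 5.66 in RKO and 5.86 in HCT116, and the 7 endothelial markers 5.78 in RKO and 6.22 in HCT116. Of 11 immune markers, 9 did not pass, 1 was lower and 1, CD68, was higher. CD68, a lysosomal protein that macrophages hold in quantity, had 10.48 and 10.59 in RKO, against 8.53 and 8.59 in HCT116 (3.94-fold). Of 7 housekeeping genes, PPIA was 1.39-fold lower, B2M was higher as given above, and 5 did not pass, GAPDH among them with means of 9.25 in RKO and 9.35 in HCT116.

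The SW48 arrays were not in the contrast, only in the estimate of spread. Of the 509 genes at least 2-fold higher in RKO, the SW48 mean was within 1 log2 unit of RKO alone for 30.5%, of HCT116 alone for 35.4%, of both for 22.8% and of neither for 11.4%. Of the 575 genes at least 2-fold lower in RKO, these shares were 46.4%, 26.3%, 13% and 14.3%. Among the 52 genes at least 16-fold lower in RKO, SW48 lay nearer RKO for 23 and nearer HCT116 for 29. LAPTM4B, HLTF, DKK1, MSN, OSMR and BNIP3 were low in RKO and SW48, and EREG, AHR, ACSL5, ANXA3 and the epithelial genes ESRP1, DSC2 and EPCAM were low in RKO and high in both other lines. These SW48 positions are a description with no test.

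Arrays of cells given Nutlin-3a hold the same pair of lines, and their difference uses no untreated array. Both contrasts came from the same fit and share its estimate of spread, so they are not independent tests. Genes chosen for a 2-fold difference between the same lines are also apt to be called again. In the Nutlin-3a arrays 5985 genes were called between RKO and HCT116 (42.4%). Of the 1084 genes at least 2-fold different in untreated cells, 1079 were called in the same direction (99.5%), 938 of them again at 2-fold or more, and 0 in the opposite direction. With the 4 arrays of each contrast fitted alone, 1080 of 1084 were called in the same direction. The 5 not called were ANKRD36B, CLTRN, DIP2A-IT1, MIRLET7F1 and SPATA31H1, named after their values were seen. ESRP1 differed by -6.11 there, LAPTM4B by -8.43, DCLK1 by 6.93, BST2 by 6.62 and CGAS by 4.91. The difference between the 2 contrasts was called at 35 of all genes (0.248%), 16 of them among the 1084.

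**Figure D5:**
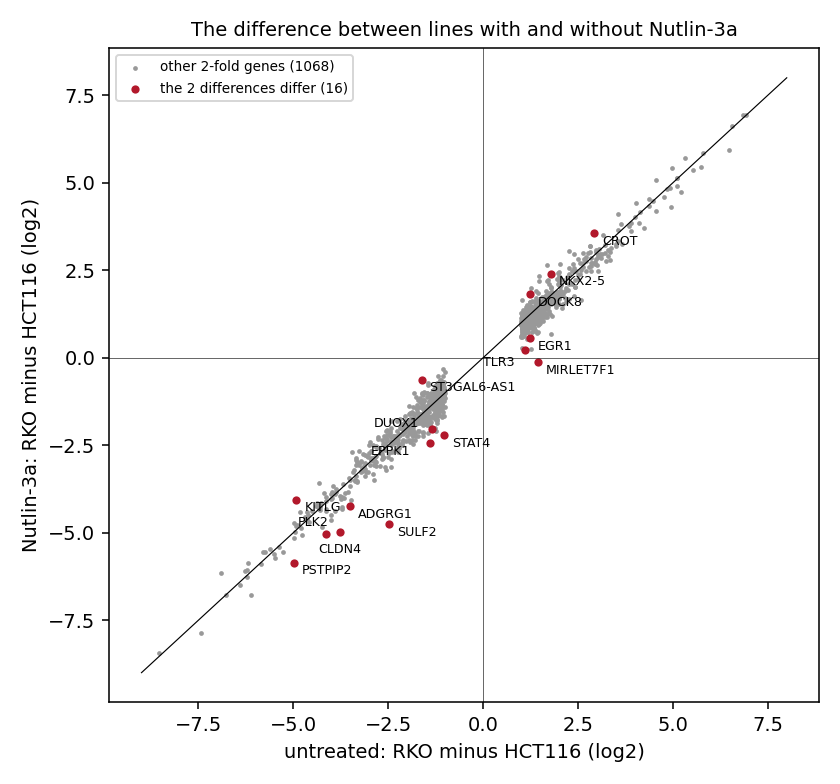
Difference of RKO and HCT116 in Nutlin-3a-treated cells (vertical axis, log2) against the same difference in untreated cells (horizontal axis, log2) for the 1084 genes at least 2-fold different in untreated cells; the line marks equal differences, and red points are the 16 genes at which the 2 differences themselves differed (adjusted p under 0.05). Most points lie near the line, and SULF2 and MIRLET7F1 lie furthest below it among the named points.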

How the data were processed

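Affymetrix Human Gene 2.0 ST arrays gave the expression of 12 RNA samples, 2 per group of line and treatment. The deposited value table holds 1 value per probe set and array, as the authors processed it. Per the submitters' processing notes GCOS was the software; labels and headers state neither a version nor how background, normalization and genome build were handled. The values were taken as log2 of intensity from their range (2.22 to 13.45), since the log base is not stated per the labels or the file headers, so folds rest on that. Of 37270 probe sets, 14530 (39%) had 1 symbol, 0 several and 22740 none. All 14530 matched NCBI RefSeq (GRCh38.p14), which gave gene type and chromosome. Where a gene had several (395 genes), the probe set with the highest mean over the arrays was used, giving 14118 genes, with no filter on dim signal.

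All 12 arrays were fitted as 6 group means with limma 3.58.1 in R 4.3.3 (6 residual and 3.71 prior degrees of freedom), and p-values were adjusted by Benjamini-Hochberg over all genes. Differences are RKO minus HCT116 with standard errors. The fit was tested on simulated data. Alternatives were median centring, quantile normalization, the 4 arrays of a contrast alone, an intensity trend with a robust prior, a filter on dim genes, the mean of a gene's probe sets, all probe sets, a stricter threshold, a replicate block and leaving out each untreated array. Differences between replicates 1 and 2 of untreated RKO and untreated HCT116 correlated at -0.102, so no strong effect shared by replicate number was seen. That value cannot tell whether samples of the same number were prepared together.

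Genes were named by a rule: the 20 largest differences each way among called coding genes whose arrays did not overlap, 6 each way among noncoding genes, up to 6 called members of each list with the largest differences, and a short set of genes of interest. Other genes are said to be named after their values were seen. The 35 lists, the families and the contrast were chosen with earlier results of these data known. Of 61 solute carriers listed, 0 were measured, and 7 members of an integrin, laminin and collagen list were, of which 2 were higher and 1 lower.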

Additional observations from a re-analysis of the deposited data

Results flagged for a closer look

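The difference of RKO and HCT116 in Nutlin-3a-treated cells was set against the same difference in untreated cells for each gene named above, and at 8 of them the 2 differed by limma's test of the difference itself, adjusted over all genes. Explanations were not tested. SULF2 had the largest change: RKO was lower by a further 2.27 on the log2 scale with the drug (-2.27 ± 0.28, adjusted p = 0.0243), where its levels were 4.81 and 4.50 in RKO and 9.37 and 9.45 in HCT116. PLK2 changed by -1.20 ± 0.13 (adjusted p = 0.0204), PSTPIP2, an actin-associated F-BAR adaptor, by -0.867 and CLDN4 by -0.889 (adjusted p = 0.0392 and 0.0475), each with RKO further below HCT116 in treated cells. KITLG went the other way by 0.859 (adjusted p = 0.0362), with 7.83 and 7.66 in treated RKO and 11.80 and 11.81 in treated HCT116. EGR1 changed by -0.662, which left RKO 0.57 above HCT116 with the drug, and NKX2-5 by 0.608, with RKO further above. MIRLET7F1 changed by -1.56 ± 0.22 (adjusted p = 0.0391), with 3.56 and 3.30 in treated RKO and 3.58 and 3.52 in treated HCT116, where the difference did not pass (adjusted p = 0.585).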

How the results depend on the processing

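Over 214 named genes and 12 alternatives, leaving out genes that the dim filter dropped, 2486 results kept call and direction, 58 lost the call, 2 gained it (ZEB1 and MATR3 with quantile normalization) and 4 changed sign. The sign changes were all of genes that did not pass: without RKO replicate 1 LGR5 was at 0.0102 and MYC at -0.04977, without HCT116 replicate 1 GDF15 was at 0.03155, and without HCT116 replicate 2 MYC was at -0.009781. Leaving out each untreated array in turn gave LGR5 -0.2437 to 0.0102, MYC -0.04977 to 0.06119 and GDF15 -0.1134 to 0.03155. With the 4 arrays of each contrast alone, 5398 genes were called, 1084 at 2-fold, and 1080 of these also in Nutlin-3a arrays. With all 37270 probe sets in place of 14118 genes, 9312 were called, 1912 at 2-fold, and 1895 of these also in Nutlin-3a arrays. Without 1 untreated array, 4756 to 4971 genes were called, 1069 to 1122 at 2-fold, and 1062 to 1116 of these in Nutlin-3a arrays. Replicate numbers as a block gave 5699, 1084 and 1079, and, chosen after seeing the data, the block with the HCT116 numbers crossed gave 5724, 1084 and 1079. The block, though the numbers share no stated source, ended the calls of PMS1, TEX19, MAEL and THY1. Across the alternatives 51.9% to 60.4% of calls and 45.3% to 49.6% of 2-fold calls were higher in RKO; centring each array on its median moved the median difference of all genes to 0.0538. Probe sets disagreed in sign at 2 of 44 2-fold genes with several, ANKRD6 and NIPAL3, and at 7 of the 44 every probe set was at least 2-fold the same way. The cause of these changes was not tested. No background measure or detection call was used here, so a low level is not shown to be expression.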
